A study of Mus musculus with 18 samples.

Results

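The transcripts of 10 genes that encode nucleolar proteins and proteins of small nucleolar ribonucleoproteins (snoRNPs) were followed through 6 groups of Neuro2A samples. The genes were *Fbl*, *Nop56*, *Nop58*, *Dkc1*, *Nhp2*, *Nop10*, *Gar1*, *Nolc1*, *Ncl* and *Npm1*, and each was found by its symbol at 1 locus of the deposited table. These are 10 of 52179 loci with a gene symbol, and all 10 were among the 15579 loci that were tested, those averaging 10 or more normalized counts over the 18 samples. *Npm1* was the member with the clearest pattern: its normalized count was lower in every nuclear sample than in every whole cell sample, by 3.94-fold in control cells. *Ncl* was separated by compartment in the same direction with a smaller difference. Such a separation in this direction was found for 4.4% of all tested loci. No member passed the test between the *miR-92b* pulldown and its scrambled control in either compartment. Of all tested loci 0% passed it in nuclear and 0.00642% in whole cell samples.

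The study asked which RNAs are held by *miR-92b* in the nucleus. Neuro2A (N2A in the labels) is a mouse neuroblastoma cell line, here of WT genotype in every group. Cells were transfected with a biotinylated *miR-92b* mimic at 25 nM or with a biotinylated scrambled mimic at 25 nM (Scr), or were left untransfected (control, as the study describes them), so the control groups carry neither mimic nor biotin. Whether control material was also passed over the beads that capture biotin is not stated, so control values may stand for the RNA of the fraction or for what the beads hold without a mimic. Each of the 3 treatments was sampled as nuclear and as whole cell material, with 3 samples in each of the 6 groups, and whole cell material includes the nucleus. Nothing in the labels says that the 3 samples of a group came from separate cultures, so p-values measure the spread between these samples only. RNA was selected with oligo-dT beads, which hold polyadenylated RNA.

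The nucleolus is where ribosomal RNA is made, modified and built into ribosomal subunits. Most of the modifications are guided by snoRNAs, which pair with ribosomal RNA and carry an enzyme to the paired site: box C/D snoRNPs methylate ribose and hold the methyltransferase fibrillarin (*Fbl*) with *Nop56* and *Nop58*, and H/ACA snoRNPs convert uridine to pseudouridine and hold dyskerin (*Dkc1*) with *Nhp2*, *Nop10* and *Gar1*. *Nolc1* encodes Nopp140, a phosphoprotein that associates with both kinds of snoRNP, while nucleolin (*Ncl*) and nucleophosmin (*Npm1*) are abundant nucleolar proteins that act in ribosome assembly. In mammals most snoRNAs are cut from the introns of host genes, and *Ncl*, *Nop56* and *Nop58* are themselves such hosts.

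A pair of short sequences bears on how these loci can be read. The mature *miR-92b-3p* (RefSeq, GRCm38.p6, chr3:89227126-89227147, minus strand) is shown because it is the bait of the pulldown, with its seed, bases 2 to 8, in capitals. The *Ncl* stretch is shown because it is the only match to that seed in an annotated 3′ UTR of the 10 genes (GENCODE M21, GRCm38), with the 7 matching bases in capitals.
miR-92b-3p: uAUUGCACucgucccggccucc
Ncl 3′ UTR: aacaaacagtacaGTGCAATctgaaat
The match starts at base 431 of the 5901 bases of the *Ncl* 3′ UTR. The letters GTGCAAT were searched on the transcript strand, and so was TGCAATA. The latter shares 6 bases with them and ends in an A that lies opposite base 1 of *miR-92b-3p*. Of the 10 members 1 had a match. Over the 21153 genes with an annotated 3′ UTR, 14.3% had one. A match is a description of sequence and not a binding site.

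Inside the 10 genes the annotation places 13 snoRNA genes, in 4 hosts: 4 in *Nop58*, 3 in *Ncl*, 5 in *Nop56* and 1 in *Dkc1*. Of these, 8 are joined to the host in 1 locus of the deposited table, so that the value of the host locus would include their reads and cannot be split. The sequences below are examples of the joined snoRNAs, from the GENCODE M21 transcripts, with GATG (part of box C) and CTGA (box D) in capitals, or the ACA that ends H/ACA snoRNAs. Snord70 lies in intron 2 of *Nop58* (chr1:59691934-59692020), Gm26287 in intron 8 of *Nop58*, Snord57 in intron 10 of *Nop56*, and Snora75 in intron 12 of *Ncl*.
Snord70: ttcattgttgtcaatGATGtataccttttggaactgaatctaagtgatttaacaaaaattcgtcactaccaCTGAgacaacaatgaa
Gm26287: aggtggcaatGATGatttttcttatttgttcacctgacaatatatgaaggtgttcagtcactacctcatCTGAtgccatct
Snord57: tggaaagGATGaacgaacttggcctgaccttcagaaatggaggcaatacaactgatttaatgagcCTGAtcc
Snora75: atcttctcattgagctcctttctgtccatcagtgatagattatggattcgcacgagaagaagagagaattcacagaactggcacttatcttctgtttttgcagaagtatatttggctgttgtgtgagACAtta
Of the 13 snoRNAs, 10 held GATG within the first 20 bases followed by CTGA, and 2 ended in ACA and 3 more bases. Among all 1483 snoRNA genes of the annotation the shares were 26.4% and 17.1%. Another 4 of the 13 (Snord11 of *Nop58*, Snord82 of *Ncl*, Snord110 of *Nop56* and Gm25520 of *Dkc1*) have a locus of their own, and each of these loci is listed at 0 in all 18 samples.

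The loci differ in how cleanly they stand for 1 gene. *Nhp2*, *Npm1*, *Nolc1*, *Nop10* and *Dkc1* are the only symbol at their locus, while the other 5 members share theirs. *Nop58* shares its locus (chr1:59684971-59719044) with 3 snoRNA symbols, *Ncl* (chr1:86342043-86359419) with Snora75 and Mir3535, and *Nop56* (chr2:130274430-130284547) with 4 snoRNA symbols. The remaining pair share with protein-coding genes: *Gar1* with *Rrh* (chr3:129804408-129831396) and *Fbl* with *Dyrk1b* (chr7:28169710-28199288). Values of these 2 loci are uncertain as values of *Gar1* and *Fbl*. Some loci also run past the annotated gene, with a single symbol or not. The *Dkc1* locus ends at base 75131016 of chrX, while the annotated gene ends at 75109777. For *Nhp2* the ends are 51636033 and 51623714 on chr11, and for *Nop56* 130284547 and 130279313 on chr2. What the extra stretches hold was not examined, so values of these loci may include reads from outside the gene.

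Depth ranged from 3752991 to 22920038 reads on loci with a symbol (median 5117488.5), and the members had 8 reads (*Nop10* in 1 nuclear sample) to 21449 reads (*Npm1*). The labels were checked against lists of marker transcripts. All 6 cytoplasmic transcripts of the list were lower in nuclear samples in each of the 3 treatments. Of 5 tested nucleus-retained transcripts, 4 were higher in nuclear samples with control and with *miR-92b* and 0 with Scr, where their median log2 difference was 0.77. Of 16 loci of sympathetic neuroblastoma markers 13 were tested, with *Nefl* at 0, and 0 of 5 fibroblast and 0 of 4 immune marker loci reached the minimum. Glial markers had 3 of 4 loci tested, with sums of 84.0 to 308.7 normalized counts.

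Some samples stood apart. Whole cell *miR-92b* sample 3 was the highest or the lowest of the 9 whole cell samples at 44.3% of the tested loci, and nuclear Scr samples 2 and 3 were so among the 9 nuclear samples at 50.9% and 44.3%. Whole cell Scr sample 1 (38.7%) and nuclear control sample 3 (35.6%) came next. In whole cell *miR-92b* sample 3 the summed normalized count of the 6 cytoplasmic transcripts was 111947, against 29565 to 62252 in the other 8 whole cell samples, and the sum of the 7 nucleus-retained transcripts was 39779, against 69892 to 102737. In nuclear Scr samples 2 and 3 the cytoplasmic sum was 12680 and 15324, against 4902 to 7528 in the other 7 nuclear samples. The part of these shifts in the results below was not tested beyond leaving out each sample.

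Levels of different genes were compared only as FPKM, which is relative to transcript length. FPKM did not always follow the counts of a locus. *Dkc1* in whole cell Scr samples 1 and 2 had 175 and 137 normalized counts but 55.3 and 7.70 FPKM. The order below is uncertain to that extent. In whole cell samples *Npm1* was the most abundant, with a median of 427 FPKM and a range of 271 to 1000.44 over the 9 samples. *Nop56* followed with a median of 102 FPKM (85.8 to 206) and did not overlap with *Npm1*. *Ncl* had a median of 60.0 FPKM (44.6 to 77.2), below every *Nop56* value. Further down, neighbours overlapped throughout: *Fbl* had a median of 50.9 FPKM, *Nop58* 49.9, *Nhp2* 39.6, *Dkc1* 21.6, *Nop10* 17.0, *Gar1* 8.88 and *Nolc1* 5.69. The medians of the 3 box C/D genes thus lay above those of the 4 H/ACA genes, but most ranges overlapped. *Nhp2*, with a range of 14.4 to 94.0 FPKM, overlapped with all 3. *Dkc1* (up to 55.3 FPKM) and *Nop10* (up to 44.9) overlapped with *Fbl* (from 38.6) and *Nop58* (from 37.9). Among the H/ACA genes only *Gar1* (up to 17.5 FPKM) lay below all 3. The loci of all 3 box C/D genes also hold other symbols, as does that of *Gar1*.

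In nuclear samples every neighbour in the order overlapped. *Npm1* was still first, with a median of 108 FPKM (92.2 to 209), but *Nop56* now overlapped with it, with a median of 97.3 FPKM (47.9 to 136). *Nop58* had a median of 41.5 FPKM, *Ncl* 36.3 and *Fbl* 33.2. The H/ACA genes lay between 4.44 (*Nop10*) and 10.6 FPKM (*Nhp2*), and *Nolc1* was the lowest, with a median of 3.40 FPKM.

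**Figure D1:**
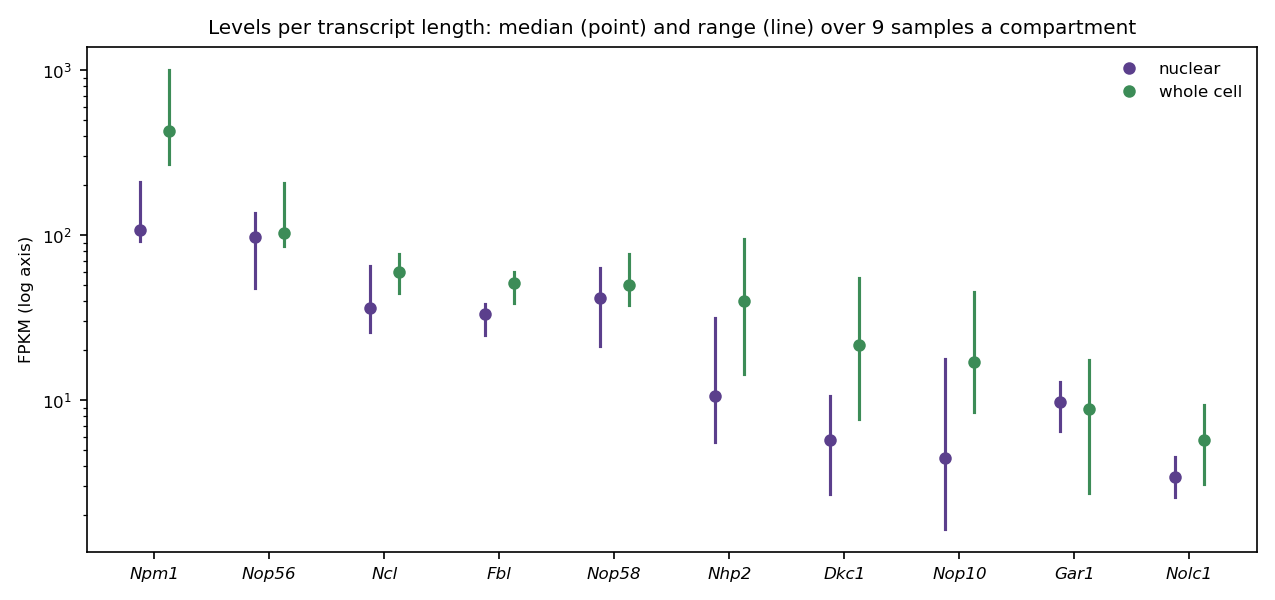
FPKM (log axis) of the 10 genes in nuclear and whole cell samples, with the median (point) and the range (line) over the 9 samples of each compartment, ordered by the whole cell median. *Npm1* is highest in both compartments, with medians of 108 and 427, and *Nolc1* lowest, with 3.40 and 5.69.

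Nuclear and whole cell samples were compared within each treatment by limma on log2(normalized count + 1), where a positive log2 difference is a higher nuclear value. Of the 10 members, 2 were lower in nuclear samples with control (*Npm1* and *Ncl*), 2 with Scr (the same 2 genes) and 3 with *miR-92b* (*Npm1*, *Ncl* and *Dkc1*). No member was higher in nuclear samples in any of the 3. Over all 15579 tested loci 9.85%, 5.17% and 13.3% were called in the 3 comparisons, in either direction. Of the called loci, 458, 228 and 1038 were higher in nuclear samples and 1077, 577 and 1033 lower. A lack of higher calls among 10 loci is therefore not particular to the members. The median log2 difference of the 10 members was −0.55 with control, −0.59 with Scr and −0.31 with *miR-92b*, beside medians over all tested loci of 0.06, 0.01 and 0.26. The last of these medians was 0.35 after scaling samples to the same median, 0.11 after quantile normalization and 0.09 on FPKM values, so differences with *miR-92b* are read against it. Nuclear and whole cell samples did not overlap for 2 members above and 4 below with control, 1 above and 3 below with Scr, and 1 above and 4 below with *miR-92b*. The same was true of 38.1%, 22.3% and 36.2% of all tested loci in either direction, so a lack of overlap between compartments was common. With 3 samples against 3, an exact permutation test of a single gene cannot go below p = 0.1. Normalized counts are scaled by sample, so a lower nuclear value is a lower relative level and not an amount of RNA per cell. In bulk samples the number of cells that hold a transcript cannot be told either.

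**Figure D2:**
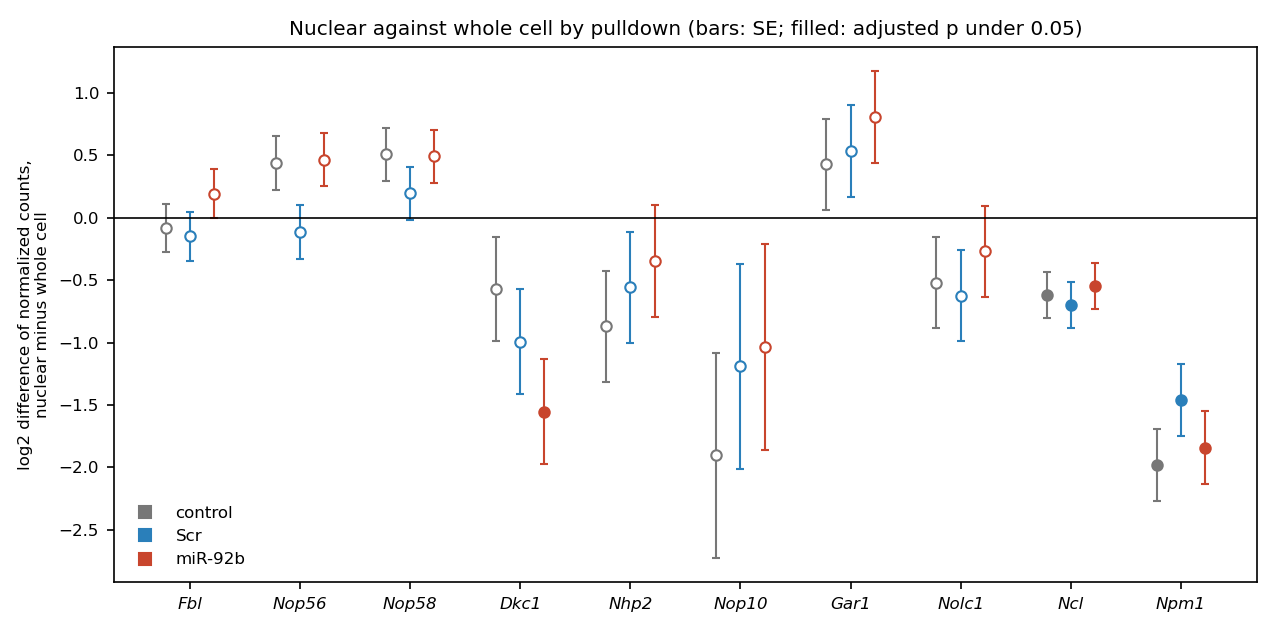
Log2 difference of normalized counts between nuclear and whole cell samples (y axis; nuclear minus whole cell) for each gene and treatment, with bars for the SE of the limma fit and filled points for an adjusted p under 0.05. *Npm1* and *Ncl* are filled below 0 in all 3 treatments, *Dkc1* is filled with *miR-92b* (−1.55), and *Nop56*, *Nop58* and *Gar1* lie above 0 except for *Nop56* with Scr (−0.11).

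*Npm1* (chr11:33152275-33163206), whose protein moves between nucleolus and cytoplasm and binds ribosomal particles, showed the widest gap. In control samples its normalized counts were 1340.15, 1464 and 1506 in nuclear and 6164, 4783 and 6162 in whole cell samples. In Scr samples they were 1272, 2007 and 2275 against 4642, 4642 and 5617. In *miR-92b* samples they were 1610.35, 1690.32 and 1417 against 4475, 3386 and 11711. Every nuclear value lay below every whole cell value, and the single highest value came from whole cell *miR-92b* sample 3. The log2 difference was −1.98 ± 0.29 (SE) with control (adjusted p = 6.07e-05, limma), which is 3.94-fold lower in nuclear samples. It was −1.46 ± 0.29 with Scr (adjusted p = 0.0048, limma), or 2.75-fold, and −1.84 ± 0.29 with *miR-92b* (adjusted p = 0.000161, limma), or 3.58-fold. Without whole cell *miR-92b* sample 3 the last was −1.31 (adjusted p = 6.89e-05, limma).

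*Ncl* encodes nucleolin, which binds nascent ribosomal RNA. In control samples its normalized counts were 1844, 2186 and 2063 in nuclear and 3291, 2733 and 3340.27 in whole cell samples. In Scr samples they were 1747, 2189 and 1675 against 2827, 3102 and 3135. In *miR-92b* samples they were 2013, 2152 and 1818 against 2386, 2573 and 4022. The groups did not overlap in any of the 3 treatments, and whole cell *miR-92b* sample 3 was again the highest of all. The log2 difference was −0.62 ± 0.18 (SE) with control (adjusted p = 0.0329, limma), −0.70 ± 0.18 with Scr (adjusted p = 0.0277, limma) and −0.55 ± 0.18 with *miR-92b* (adjusted p = 0.0492, limma), between 1.46-fold and 1.62-fold lower in nuclear samples. The call with *miR-92b* is close to the threshold: it was lost under 22 of 31 alternatives, and without whole cell *miR-92b* sample 3 the difference was −0.32 (adjusted p = 0.249, limma). The calls with control and Scr were lost under 8 and 7 of 31, with the difference between −0.82 and −0.49.

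Taking the 3 treatments side by side, *Npm1* and *Ncl* were the 2 members whose 9 nuclear normalized counts all lay below their 9 whole cell counts, as did 4.4% of all tested loci. No member lay above in all 9, as did 2.91% of all loci. On FPKM values the 2 members below were *Npm1* and *Fbl*, beside 4.65% of all loci, and none lay above, beside 1.34%. *Ncl* overlapped on that scale, with 25.8 to 64.8 FPKM in nuclear and 44.6 to 77.2 FPKM in whole cell samples.

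**Figure D3:**
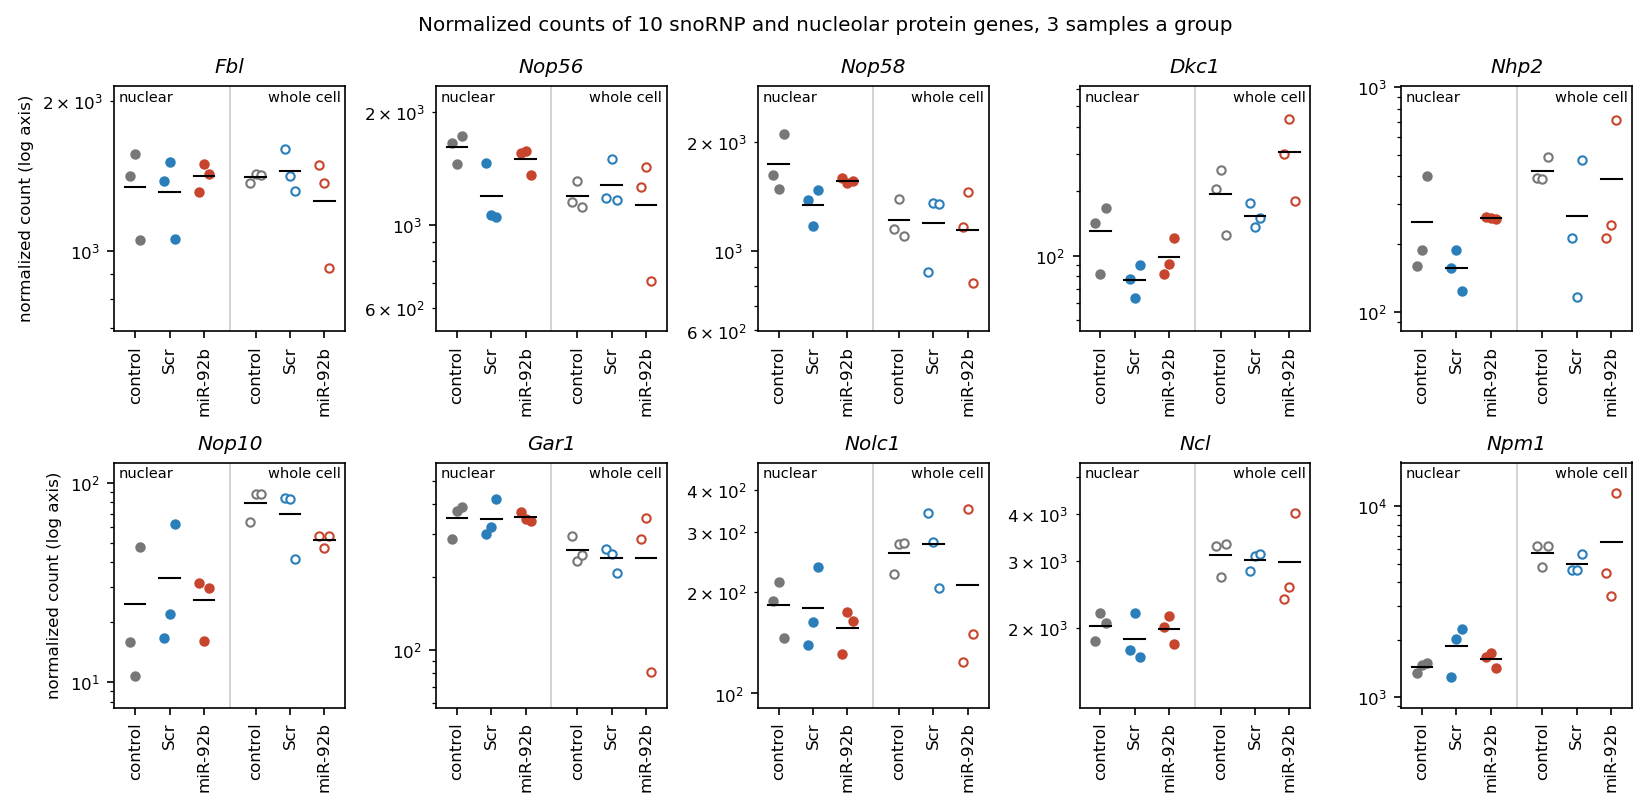
Normalized counts (log axis) of each gene in every sample by treatment, with nuclear samples filled at the left of each panel and whole cell samples open at the right, and a line for the mean of 3 samples. *Npm1* (1272 to 2275 against 3386 to 11711) and *Ncl* (1675 to 2189 against 2386 to 4022) are separated by compartment, while the compartments overlap for the other 8 genes.

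Among the H/ACA proteins, *Dkc1* (chrX:75095854-75131016), the pseudouridine synthase itself, was called in 1 of the 3 treatments, *miR-92b*. Its normalized counts with *miR-92b* were 82.0, 91.6 and 121 in nuclear and 299.65, 434 and 179.7 in whole cell samples. With Scr they were 77.7, 63.3 and 90.8 against 175, 137 and 149.5, and with control 142, 82.0 and 168 against 205, 252 and 125. The locus runs past the annotated gene, so reads from outside it may be included. The groups did not overlap with *miR-92b* and Scr, and they overlapped with control. The log2 difference was −1.55 ± 0.42 (SE) with *miR-92b* (adjusted p = 0.0156, limma), −0.99 ± 0.42 with Scr (adjusted p = 0.166, limma) and −0.57 ± 0.42 with control (adjusted p = 0.464, limma). The call was lost under 4 of 31 alternatives, among them leaving out nuclear *miR-92b* sample 1 or 2 or whole cell *miR-92b* sample 2 (adjusted p = 0.0695, 0.0608 and 0.06325, limma). The difference between the *miR-92b* and control effects was itself −0.98 (95% interval −2.21 to 0.24, adjusted p = 0.99995, limma) and did not pass the test, and neither did that of any other member, as for 0% of all tested loci (290 at an unadjusted p under 0.05). The same holds for the Scr and control effects, again 0% of all loci (823 at an unadjusted p under 0.05).

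The other H/ACA proteins did not pass the test in any treatment. *Nhp2* (chr11:51619735-51636033), which binds the snoRNA with the core, had control counts of 160.3, 188 and 402 in nuclear and 393, 389 and 488 in whole cell samples, which overlapped through nuclear sample 3. Its log2 differences were −0.87 with control, −0.56 with Scr and −0.35 with *miR-92b*. *Nop10* (chr2:112261926-112263269), a very small protein that binds dyskerin, had control counts of 15.9, 10.8 and 47.5 in nuclear and 63.5, 87.3 and 87.3 in whole cell samples, which did not overlap. Its log2 differences were −1.90, −1.19 and −1.03, each with an SE of 0.82, so that these few reads allow a wide range of values. On FPKM values the *Nop10* difference with control was −2.62 (adjusted p = 0.033, limma).

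*Gar1*, the H/ACA protein that joins last and replaces the assembly factor Naf1, was the one of the 4 with positive differences. Its control counts were 286, 375 and 388 in nuclear and 296, 233 and 247 in whole cell samples, its Scr counts 302, 322 and 421 against 260.4, 249 and 207, and its *miR-92b* counts 370.1, 348 and 339.5 against 286, 349.8 and 80.9. Nuclear values lay above all whole cell values with Scr and overlapped with them in the other treatments, and whole cell *miR-92b* sample 3 was the lowest of all 18. The log2 differences were 0.43, 0.53 and 0.81 with control, Scr and *miR-92b*, and on FPKM values they were −0.57, 0.88 and 0.05, so that the direction with control depends on the scale. None passed the test.

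None of the box C/D proteins passed the test. *Nop58*, a core protein of box C/D snoRNPs, had control counts of 1625, 1480.34 and 2104 in nuclear and 1148, 1393 and 1099 in whole cell samples, with nuclear values above. With *miR-92b* its counts were 1588, 1546 and 1559.96 against 1163, 1458 and 813, also without overlap. The log2 difference was 0.51 ± 0.21 (SE) with control (adjusted p = 0.143, limma), 0.20 with Scr and 0.49 with *miR-92b* (adjusted p = 0.129, limma). *Nop56*, its paralog in the same particle, had control counts of 1659, 1460.17 and 1731 in nuclear and 1151, 1308 and 1118 in whole cell samples, again with nuclear values above. Its log2 difference was 0.44 ± 0.21 with control (adjusted p = 0.224, limma), −0.11 with Scr and 0.46 with *miR-92b*. On FPKM values *Nop58* had differences of −0.16 with control, −0.36 with Scr and −0.46 with *miR-92b*, opposite to the counts in all 3. *Nop56* had −0.37, −0.79 and 0.30, opposite to the counts with control. None of these passed the test, and both loci are joined to snoRNA symbols.

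*Fbl*, the methyltransferase, was the most even member on the count scale. Its normalized counts with control were 1414, 1562 and 1052 in nuclear and 1366, 1423 and 1420.3 in whole cell samples, which overlapped. The log2 differences were −0.08 (95% interval −0.49 to 0.32) with control, −0.15 with Scr and 0.19 with *miR-92b*. On FPKM values all 9 nuclear samples, 24.8 to 38.3, lay below all 9 whole cell samples, 38.6 to 59.5, with log2 differences of −0.65, −0.52 and −0.39 that did not pass the test. *Nolc1* (chr19:46075117-46085897) had control counts of 188, 214 and 146 in nuclear and 226, 276 and 278 in whole cell samples, without overlap, and log2 differences of −0.52, −0.63 and −0.27 that did not pass either.

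The pulldown itself was compared as *miR-92b* against Scr, where a positive log2 difference is a higher value with *miR-92b*. Of the 10 members, 0 passed the test in nuclear samples, as for 0% of all tested loci (687 at an unadjusted p under 0.05), and 0 passed in whole cell samples, where 0.00642% of all loci did (1 locus, and 1515 at an unadjusted p under 0.05). At an unadjusted p under 0.05 there were 0 members in nuclear samples and 1, *Dkc1*, in whole cell samples. edgeR and DESeq2 on the recovered reads also called 0 members in both, and over all loci edgeR called 0 and 1 and DESeq2 1 and 176. For the members the median log2 difference came to 0.11 (nuclear) and −0.15 (whole cell), beside 0.11 and −0.01 over all tested loci.

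**Figure D4:**
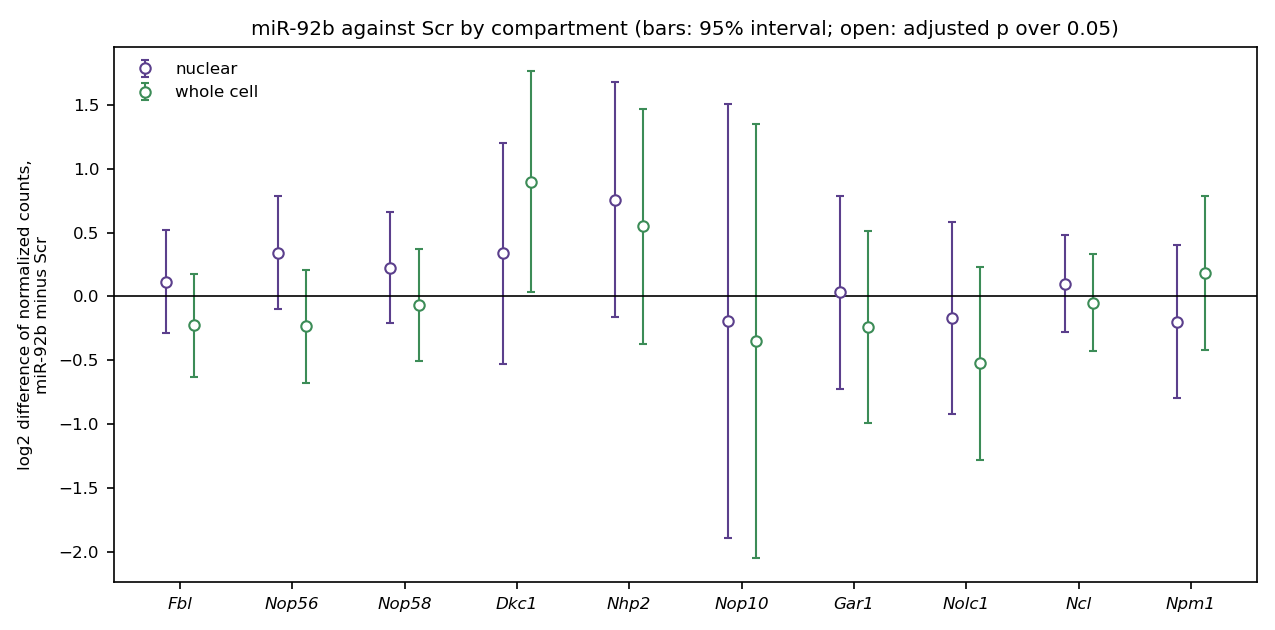
Log2 difference of normalized counts between *miR-92b* and Scr samples (y axis; *miR-92b* minus Scr) for each gene in nuclear and whole cell samples, with bars for the 95% interval of the limma fit and open points for an adjusted p over 0.05. All points are open and lie between −0.53 (*Nolc1*, whole cell) and 0.90 (*Dkc1*, whole cell), and the interval of *Nop10* is the widest.

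*Dkc1* had the largest difference in whole cell samples, with normalized counts of 299.65, 434 and 179.7 with *miR-92b* and 175, 137 and 149.5 with Scr. The groups did not overlap, as for 8.92% of all tested loci in either direction, and the log2 difference was 0.90 (95% interval 0.03 to 1.76, adjusted p = 0.499, limma). In nuclear samples it was 0.34 (95% interval −0.53 to 1.20). *Nhp2* had the largest difference in nuclear samples: its counts were 265, 259.9 and 258 with *miR-92b* and 157, 188 and 124 with Scr, and those groups did not overlap either, as for 10.1% of all loci. The log2 difference was 0.76 (95% interval −0.16 to 1.68, adjusted p = 0.99996, limma). In whole cell samples *Nhp2* overlapped, with 213, 243 and 709 against 213, 116 and 471, and its difference of 0.55 was 0.003 without *miR-92b* sample 3.

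*Nop58* was the other member without overlap in nuclear samples, where all 3 *miR-92b* values lay above the Scr counts of 1386, 1173 and 1470.37. Its log2 difference was 0.23 (95% interval −0.21 to 0.67). *Ncl*, the member with a seed match, had a log2 difference of 0.10 (95% interval −0.28 to 0.48) in nuclear and −0.05 (−0.43 to 0.33) in whole cell samples, and the 9 members without a match ranged from −0.20 to 0.76 and from −0.53 to 0.90. *Ncl* therefore lay within the range of the others in both compartments. *Npm1* had −0.20 (95% interval −0.80 to 0.41) in nuclear and 0.18 (−0.42 to 0.79) in whole cell samples, and the latter was −0.35 without whole cell *miR-92b* sample 3. The 95% intervals of the 10 members reach from 0.38 (*Ncl*) to 1.70 (*Nop10*) on either side of the difference on the log2 scale. Differences smaller than this reach were not detectable with these samples. The intervals are not adjusted for the number of loci tested, so larger differences could also go uncalled. *Dkc1* in whole cell samples had a difference of 0.90 (95% interval 0.03 to 1.76) and was not called (adjusted p = 0.499, limma).

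Both mimics were also set against untransfected cells, with the same *miR-92b* and Scr samples as above, so these values are not independent of the last comparison. With *miR-92b* against control, 0 members passed in nuclear samples (0% of all loci, 50 at an unadjusted p under 0.05) and 0 in whole cell samples (0.00642% of all loci, 731 at an unadjusted p under 0.05). With Scr against control, 0 members passed in nuclear samples (0%, 916 at an unadjusted p under 0.05) and 0 in whole cell samples (0%, 793). *Nop56* had the lowest unadjusted p of these, in nuclear Scr samples, with counts of 1463, 1066 and 1049 against 1659, 1460.17 and 1731 in control. The groups overlapped by 1 sample, and the log2 difference was −0.45 (95% interval −0.89 to −0.01, adjusted p = 0.838, limma). The difference of the *miR-92b* against Scr effect between compartments was not called for any member either, beside 0.00642% of all loci (1 locus), and was widest in *Nop56* at 0.58 (95% interval −0.05 to 1.20, adjusted p = 0.701, limma).

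Whole cell *miR-92b* sample 3 also set much of the spread within its group. Among the 9 whole cell samples it was the highest for *Ncl*, *Nhp2* and *Npm1* and the lowest for *Nop58*, *Nop56*, *Gar1* and *Fbl*, so it was at an end of the range for 7 of 10 members, beside 44.3% of all tested loci. Whole cell *miR-92b* sample 2 was at an end for 5 members, the highest for *Nop58*, *Nolc1*, *Gar1* and *Dkc1* and the lowest for *Npm1*, beside 27.1% of loci. In nuclear samples, Scr sample 3 was at an end for 7 members, beside 44.3% of loci. It was the highest for *Npm1*, *Nolc1*, *Nop10* and *Gar1* and the lowest for *Ncl*, *Nhp2* and *Nop56*. Nuclear control sample 3 was at an end for 5 members, the highest for *Nop58*, *Nhp2*, *Nop56* and *Dkc1* and the lowest for *Fbl*, beside 35.6% of loci. The SD of *Npm1* was 4525 normalized counts in whole cell *miR-92b* samples, 797 in whole cell control and 563 in whole cell Scr samples.

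**Figure D5:**
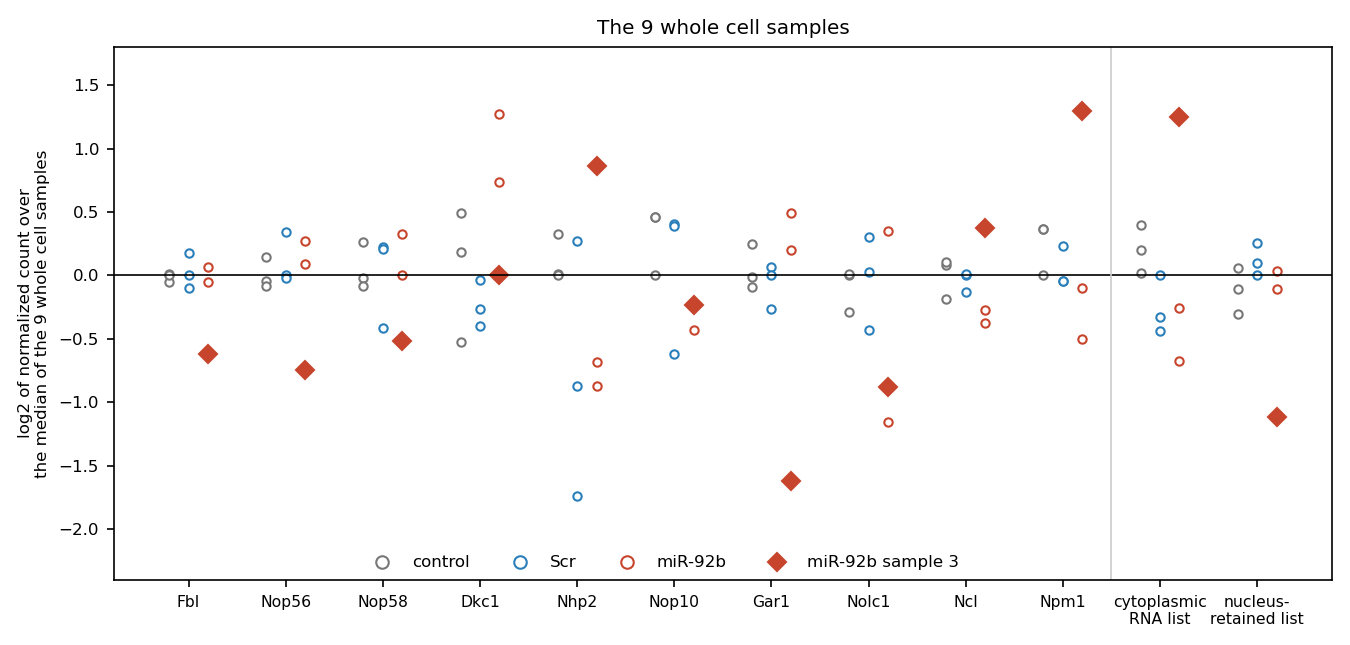
The 9 whole cell samples, as the log2 ratio of each normalized count to the median of the 9 (y axis), for the 10 genes and for the sums of the cytoplasmic and nucleus-retained lists. *miR-92b* sample 3 (diamond) is the highest for *Ncl*, *Nhp2*, *Npm1* and the cytoplasmic sum (111947) and the lowest for *Nop58*, *Nop56*, *Gar1*, *Fbl* and the nucleus-retained sum (39779).

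The profile of the members was compared with all other tested loci as the mean absolute difference of centred log2 values from the members' median profile over the 18 samples. Among the most alike non-members were *Rbbp4* (0.129), *Rad21* (0.130), *Csnk2a1* (0.133) and *Larp1* (0.143), beside a median of 0.651 over all tested loci. The members themselves ranged from 0.208 (*Ncl*) to 0.729 (*Npm1*), and *Npm1* was thus farther from the members' median profile than the median locus.

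Genes that act beside the members were followed as 4 lists, whose calls are to be read against the 9.85% (control), 5.17% (Scr) and 13.3% (*miR-92b*) of all tested loci called between compartments. Of 16 tested loci for snoRNP assembly and the Cajal body, where snoRNPs mature, 3 were lower and 0 higher in nuclear control samples, 2 lower and 1 higher with Scr, and 1 lower and 2 higher with *miR-92b*. With *miR-92b*, *Nhp2l1*, whose protein binds the kink of box C/D snoRNAs, was lower in nuclear samples (log2 difference −1.70, adjusted p = 0.00416, limma), and was also lower with control (−1.81) and Scr (−1.38). *Nufip1*, which brings that protein to the assembling particle, was higher (1.13, adjusted p = 0.00656, limma), as was *Znhit6*, another box C/D assembly factor (1.07, adjusted p = 0.026, limma). The median log2 difference of the list was −0.48 with control, −0.22 with Scr and 0.18 with *miR-92b*, beside 0.06, 0.01 and 0.26 over all tested loci.

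The 40 tested loci of the small subunit processome, which cuts and folds the precursor of the small subunit RNA, had 0 calls with control, 1 lower with Scr and 1 higher with *miR-92b*, *Mphosph10* (1.69, adjusted p = 0.019, limma), which is fewer than the share of all loci in each treatment. Its medians were −0.24, −0.23 and −0.19. Of 45 loci for large subunit assembly, 5 were lower with control, 1 lower with Scr, and 4 lower and 2 higher with *miR-92b*, which with control and *miR-92b* is near the share of all loci and with Scr below it. Its medians were −0.31, −0.15 and −0.18. The lower ones with *miR-92b* were *Ddx21*, a nucleolar RNA helicase (−0.81), *Mrto4* (−1.47), *Gnl3l* (−1.06) and *Eif6* (−1.61), and the higher ones *Tex10* (0.69) and *Rpf1* (0.84). Of 16 loci for RNA polymerase I and its factors, 1 was lower with control (*Polr1c*, −1.69), 1 with Scr (*Ubtf*, −0.97) and 4 with *miR-92b*: *Polr1c* (−1.96), *Polr1d* (−1.86), *Ubtf* (−0.87) and *Rrn3* (−0.97). The single calls with control and Scr are near the share of all loci, and the medians were −0.26, −0.05 and 0.05. *Polr1c* and *Polr1d* encode subunits that polymerases I and III share, and *Ubtf* and *Rrn3* encode factors that start ribosomal RNA transcription. None of the 4 lists had a call in *miR-92b* against Scr or in any other comparison of treatments.

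The promoters of the members were searched for CACGTG, the E-box that Myc and its partners bind, in a window of 250 bases before to 50 bases after the start (RefSeq, GRCm38.p6), where the letters read the same on both strands. *Npm1* and *Fbl* had no window in the reference table. None of the 8 others held it (0 of 8), beside 7.15% of 32851 promoters, which says only that these letters are not in this window.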

How the data were processed

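Polyadenylated RNA from nuclear and whole cell Neuro2A samples in 6 groups of 3 was sequenced. The members and the gene lists were chosen with earlier results of these data known. Per the submitters' notes, the authors used bcl2fastq 2.17 and Trimmomatic 0.30, aligned with TopHat2 to GRCm38 (mm10) and assembled and compared loci with Cufflinks; the sources used here give no version for these. Libraries were stranded, and whether counting used strand was not stated. The deposited counts are a signal, the fragments at a locus over the size factor of its sample; of 635205 values above 0 all but 4 were whole multiples (within 0.02) of 1 read, so reads were recovered for edgeR and DESeq2. The deposited FPKM values are relative to length and mapped fragments. Columns of the authors' own fold changes and p-values were not used. Loci without a symbol (4.51% to 15.3% of reads) were left out. Samples were grouped from their titles.

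limma 3.58.1 (R 4.3.3), with its trend option, was fitted to log2(normalized count + 1) as 1 model of 6 groups, two-sided, Benjamini-Hochberg over 15579 loci with a mean of at least 10, threshold 0.05. Fold changes on this scale understate changes of low genes. On simulated counts for nuclear against whole cell *miR-92b* samples, with 200 of 15579 loci changed by 2 on the log2 scale, limma recovered 86 with 7 false calls. The settings varied were the pseudocount (0.5, 8), the minimum mean (1, 50, none), FPKM with a pseudocount of 0.1, samples scaled to the same median, quantile normalization, the compared groups alone, sample weights, a replicate block, edgeR 4.0.16, DESeq2 1.42.0, and each sample left out. Named genes were all members, up to 3 loci a direction per list with the smallest adjusted p among those called in nuclear against whole cell *miR-92b* samples, and the 5 most alike loci, of which 4 are given; some items are not reported here; *Eif6* and *Rrn3* were named after their values were seen, as were genes called with control or Scr. Coordinates are of GRCm38, from the deposited table or GENCODE M21.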

Additional observations from a re-analysis of the deposited data

How the results depend on the processing

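No member was called in a comparison of treatments under any of the 31 alternatives. For nuclear against whole cell samples, the count of members called with control was 1 instead of 2 without a filter and after scaling to the same median, 5 with the compared groups alone and 6 with sample weights, which added *Nop58*, *Nop56*, *Nhp2* and, with weights, *Nop10*; leaving out 1 sample gave 1 to 3. With Scr it was 1 instead of 2 without a filter and on FPKM values, and 1 to 2 leaving out 1 sample. With *miR-92b* it was 0 instead of 3 with the compared groups alone, and 1 to 5 leaving out 1 sample, where 5 came without whole cell *miR-92b* sample 2, which added *Nop58*, *Nop56* and *Gar1* in the opposite direction and lost *Dkc1*. *Npm1* kept its call under all 31 alternatives with control and Scr, and under 30 with *miR-92b* (adjusted p = 0.0509, limma, with the compared groups alone). The cause of these changes was not tested.

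With the sample number as a replicate block, the counts were 2, 2 and 3, as without it. Samples of the same number did not deviate together (correlations of −0.04 to 0.11), so the number is read as a name. Low counts limit *Nop10*, with 8 to 158 reads a sample.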
